A study of Sus scrofa with 13 samples.

Results

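Granzyme B and 9 other genes of cytotoxic lymphocytes were followed in pig liver before ischemia and at 6 h of reperfusion, with the question whether granzyme B moved with the T cell and natural killer (NK) cell genes or alone. The genes were chosen by symbol (GZMB, GZMA, PRF1, NKG7, CD3E, CD3D, CD8A, CD2, KLRK1 and CD69), and all 10 symbols were found, on 11 of the 35670 rows of the count table, since GZMA has 2. Bulk RNA sequencing covered 13 liver libraries of purpose-bred female Yorkshire pigs. Baseline held 2 libraries, replicates 1a and 2, from liver without ischemia, reperfusion or infused cells. The 3 ischemic controls had 45 min of total vascular exclusion of the liver and 6 h of reperfusion, and no cells were given. The 4 arterial and the 4 portal infusion livers underwent the same exclusion and were then given human bone marrow-derived mesenchymal stromal cells (BM-MSCs), 3 M per kg body weight (M, mega), by way of the hepatic artery or of the portal vein, and were also sampled at 6 h. Livers were biopsied before the exclusion and again at 6 h, so the baseline libraries may come from pigs that also gave a 6 h library. The pig and lobe behind each library are not named, no pairing could be used, and the p-values measure the spread between libraries.

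Cytotoxic T cells and NK cells kill by releasing granules into the gap between them and a target cell. Perforin (PRF1) opens the target's membrane, granzyme B (GZMB) is a serine protease that cuts after aspartate and starts caspases, granzyme A (GZMA) is a protease of another specificity, and NKG7 is a protein of the granule membrane. CD3E and CD3D are signalling chains of the T cell receptor complex, CD8A is the co-receptor of cytotoxic T cells, CD2 is an adhesion receptor of T and NK cells, KLRK1 (NKG2D) is an activating receptor for stress ligands, and CD69 is an early activation marker. The liver normally houses many of these cells, and granzyme B is also known from plasmacytoid dendritic cells and mast cells, whose markers were therefore followed as well. In bulk tissue a smaller number of cells and less RNA per cell cannot be told apart.

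GZMB (ENSSSCG00000059880) lies on chromosome 7 of the pig assembly Sscrofa11.1 at 74705499 to 74708781, next to its paralog GZMH at 74723800 to 74727396, and reads shared by near-identical granzymes could be split between such genes. The 2 GZMA rows are ENSSSCG00000016903, used as GZMA below, and ENSSSCG00000016902, called the second GZMA row. The other genes lie apart from GZMB: PRF1 on chromosome 14 (73515306 to 73520256), NKG7 on chromosome 6 (58496089 to 58497827), CD8A on chromosome 3 (57999228 to 58029768) and CD2 on chromosome 4 (103963802 to 103976971). CD3E (45619730 to 45633972) and CD3D (45640475 to 45644153) are neighbours on chromosome 9. KLRK1 (61646691 to 61655386) and CD69 (62078134 to 62084961) are both on chromosome 5. The coordinates are those of the RefSeq annotation.

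The libraries held between 18975413 and 35949178 counts, with 13581 to 20282 genes that had at least 1. A few libraries stood apart by genes without any count. Of 11553 genes with a mean of at least 50 normalized counts, 5.3% were at 0 in portal infusion 1, 1.68% in portal infusion 4 and 1.18% in arterial infusion 1, against 0.0173% to 0.26% in the other 10 libraries. The members' fold changes over all livers at 6 h and their correlations are also given without these 3 libraries, as are the fold changes of several list genes. Normalized counts are counts divided by the library's size factor, and they compare 1 gene between libraries, not genes with each other, because transcript length was not taken into account.

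GZMB had few reads at baseline and was higher in every liver at 6 h. It had 3.09 normalized counts in baseline 1a and 7.38 in baseline 2, from 4 and 7 reads. The ischemic controls had 23.7, 175 and 106. The arterial infusion livers had 70.5, 13.9, 8.92 and 69.2, and the portal infusion livers 138, 39.2, 42.1 and 63.8. The lowest liver at 6 h, arterial infusion 3, was thus above the higher of the baseline libraries, but by little, and the spread among the 11 livers was wide. The 95% counting interval of GZMB (exact Poisson, counting error only) lay above both baseline intervals in 9 of the 11 livers. The exceptions were arterial infusion 2, with an interval of 7.8 to 23.0, and arterial infusion 3, with 4.45 to 16.0, against 2.97 to 15.2 in baseline 2.

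Against baseline (5.23 ± 3.04 normalized counts, SD, n = 2), GZMB was higher in the ischemic controls (101 ± 75.8, SD, n = 3) by a log2 fold change of 4.23 ± 1.29 (standard error). The adjusted p was 0.978 in edgeR's quasi-likelihood test over 16481 genes (unadjusted p = 0.00512), and a two-sided exact permutation test of the 5 libraries gave p = 0.2 where 0.1 is the smallest possible. Over all livers at 6 h (68.2 ± 52.7, SD, n = 11) the log2 fold change was 3.61 ± 1.18 with an adjusted p of 0.86 in the edgeR test (unadjusted p = 0.0082). The exact permutation test of the 13 libraries gave p = 0.0128, the smallest it can give. GZMB ranked at 118 of 16481 genes by fold change in the controls and at 248 over all livers at 6 h. These contrasts share the baseline libraries. The study named GZMB from the baseline and control libraries, so the direction in them is not independent evidence. Fitted with DESeq2 to the 5 libraries of controls and baseline alone, the fold change was 4.34 with an adjusted p of 0.00177, while DESeq2 over all 13 libraries gave 4.29 and 0.0862. In the first of these fits 168 of 23625 genes passed the adjusted threshold, and in the second 6 of 24526.

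**Figure D1:**
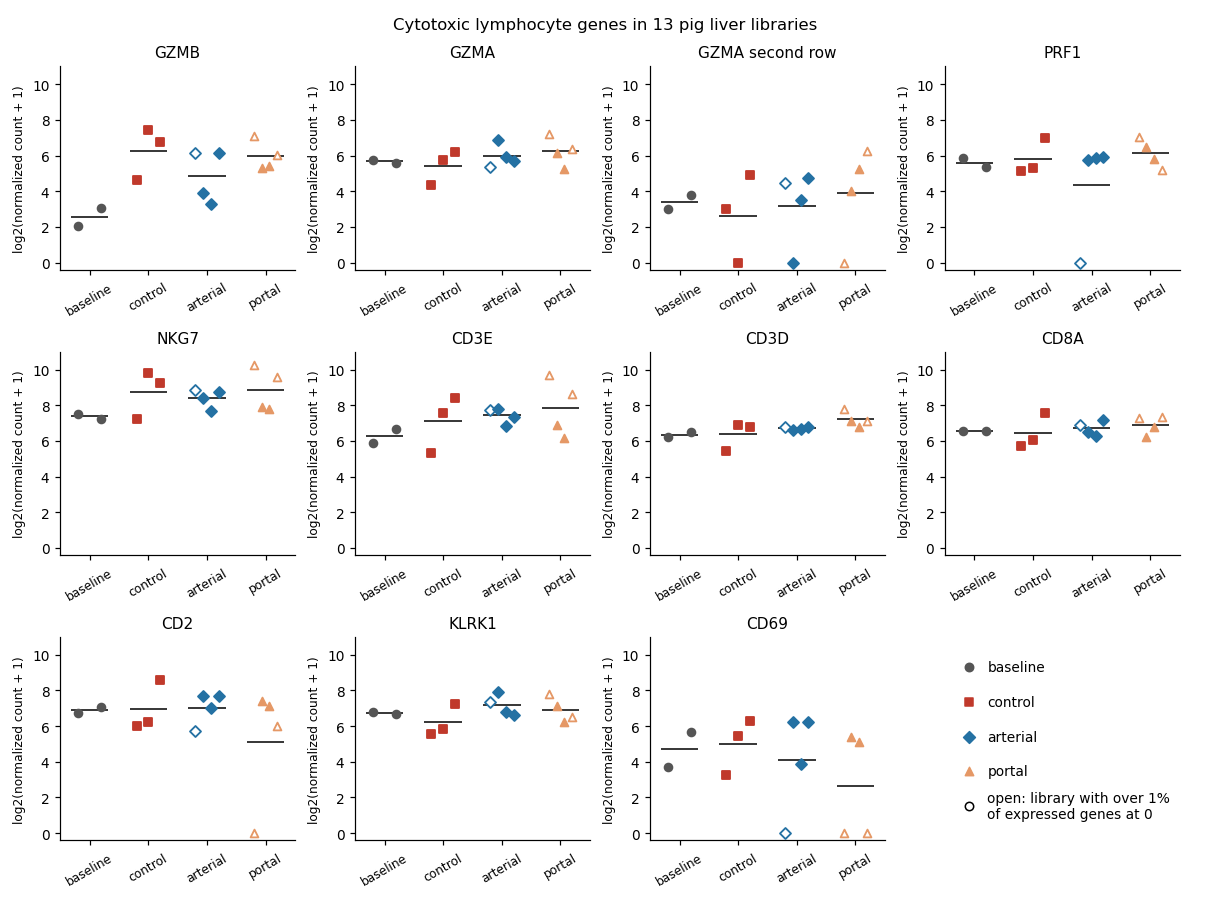
Normalized counts of each gene, as log2(normalized count + 1), by library in the 4 groups. Each point is 1 library, the black line is the group mean, and open points are the 3 libraries with over 1% of expressed genes at 0. GZMB is the gene whose baseline libraries both lie below all others, while the other panels overlap between baseline and the livers at 6 h.

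Among the members of the granule, NKG7 was the nearest to GZMB. It had 181 and 149 normalized counts at baseline and 149, 902 and 608 in the ischemic controls. The arterial infusion livers had 454, 338, 200 and 419, and the portal infusion livers 1220, 235, 219 and 774. Ischemic control 1, which also had the lowest GZMB of its group, did not exceed baseline, and the ranges overlapped. The log2 fold change was 1.71 ± 0.78 in the controls (edgeR, adjusted p = 0.978, unadjusted p = 0.0454) and 1.52 ± 0.70 over all livers at 6 h (adjusted p = 0.86, unadjusted p = 0.0458).

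PRF1 and both GZMA rows had fold changes against baseline smaller than their standard errors. PRF1 had 56.3 and 40.1 normalized counts at baseline, 34, 38.5 and 128 in the controls, 0, 52, 56.8 and 59.7 after arterial and 130, 86.9, 56.2 and 35.6 after portal infusion. Control 3 and portal infusion 1 and 2 were the highest, arterial infusion 3 and 4 lay slightly above both baseline libraries, and the 0 stood in arterial infusion 1. The log2 fold change of PRF1 over all livers at 6 h was 0.29 ± 1.08. GZMA ranged from 47.5 to 54 at baseline and from 19.8 to 146 at 6 h, with a log2 fold change of 0.31 ± 0.69. The second GZMA row was low throughout, from 6.94 to 12.7 at baseline and from 0 to 76.1 at 6 h (0.86 ± 1.72).

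Of the T cell receptor genes, CD3E was the more variable. It had 57.1 and 99.2 normalized counts at baseline, 38.8, 189 and 335 in the controls, 215, 216, 114 and 162 after arterial and 842, 116, 70.2 and 389 after portal infusion. Control 1 lay below both baseline libraries and portal infusion 3 between them, and the highest value came from portal infusion 1, the library with most genes at 0. Its log2 fold change was 1.25 ± 0.95 in the controls and 1.5 ± 0.86 over all livers at 6 h (edgeR, adjusted p = 0.978 and 0.86). CD3D, from the neighbouring locus, was steadier, at 72.5 and 88.6 at baseline and 42.7 to 218 at 6 h (0.44 ± 0.51 over all livers at 6 h). CD8A had 92.6 and 92.8 at baseline and 51.4 to 189 at 6 h (0.23 ± 0.57).

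The receptors CD2, KLRK1 and CD69 had the members' fold changes closest to 0 over all livers at 6 h, but not in the controls, where they were 0.56 ± 1.28, -0.33 ± 0.69 and 0.42 ± 1.92. CD2 had 105 and 135 normalized counts at baseline and 0 to 391 at 6 h, with the highest value in control 3 and the 0 in portal infusion 1, and a log2 fold change over all livers at 6 h of 0.17 ± 1.08. KLRK1 had 109 and 103 at baseline and 45.9 to 245 at 6 h, lower in controls 1 and 2 and higher in control 3 than at baseline (0.15 ± 0.59). CD69 had 12.3 and 50.6 at baseline and 0 to 75.9 at 6 h (0.02 ± 1.63), with 0 in arterial infusion 1, portal infusion 1 and portal infusion 4.

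Each 0 of PRF1, CD2 and CD69 stood in 1 of the 3 libraries with many genes at 0. Of the genes whose mean level in the other libraries was within 1.5-fold of the gene's own, 8.18% were at 0 in arterial infusion 1 at the level of PRF1 and 11.4% in portal infusion 1 at the level of CD2. At the level of CD69 the shares were 16.9%, 39.7% and 27.6% in arterial infusion 1, portal infusion 1 and portal infusion 4. A count of 0 allows up to 3 counts. GZMB had at least 11 reads in each liver at 6 h, these 3 included.

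Counted over the 11 rows, none passed the adjusted threshold of 0.05 by edgeR in the controls or over all livers at 6 h, where 0.0% of all genes did in each (with DESeq2 and all 13 libraries 6 and 15 genes passed, none of them a member). At an unadjusted p under 0.05, 2 of 11 were higher in the controls, GZMB and NKG7, against 3.16% of all genes, and 0 were lower, against 1.21%. Over all livers at 6 h the same 2 were higher, against 2.85%, and 0 lower, against 1.93%. GZMB was the only row with every control above both baseline libraries, a pattern of 14.8% of all genes, and the only row with every liver at 6 h above them, which held for 3.3%. No row lay wholly below baseline, as 16.3% and 3.97% of all genes did. Without GZMB, the median log2 fold change of the other 10 rows was 0.38 in the controls (range -0.33 to 1.71) and 0.30 over all livers at 6 h (0.02 to 1.52), against 0.00 and -0.01 over all genes tested. Above 0 were 9 of 11 rows in the controls, against 50.2% of all genes, and 11 of 11 over all livers at 6 h, against 49.5%. Without the 3 libraries with many genes at 0, the log2 fold change over the other 8 livers at 6 h was 3.27 ± 1.05 for GZMB, 1.06 ± 0.55 for NKG7, 0.88 ± 0.64 for CD3E, 0.52 ± 0.61 for CD2, 0.51 ± 0.84 for CD69 and 0.43 ± 0.57 for PRF1. The remaining rows lay between 0.08 and 0.71. GZMB was then the only member under an unadjusted threshold of 0.05, with an adjusted p of 0.728 in edgeR, against 0.742 for NKG7. The signs of the small changes were not stable: without control 3 the control contrasts of PRF1, CD8A and CD2 were -0.40, -0.64 and -0.78.

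**Figure D2:**
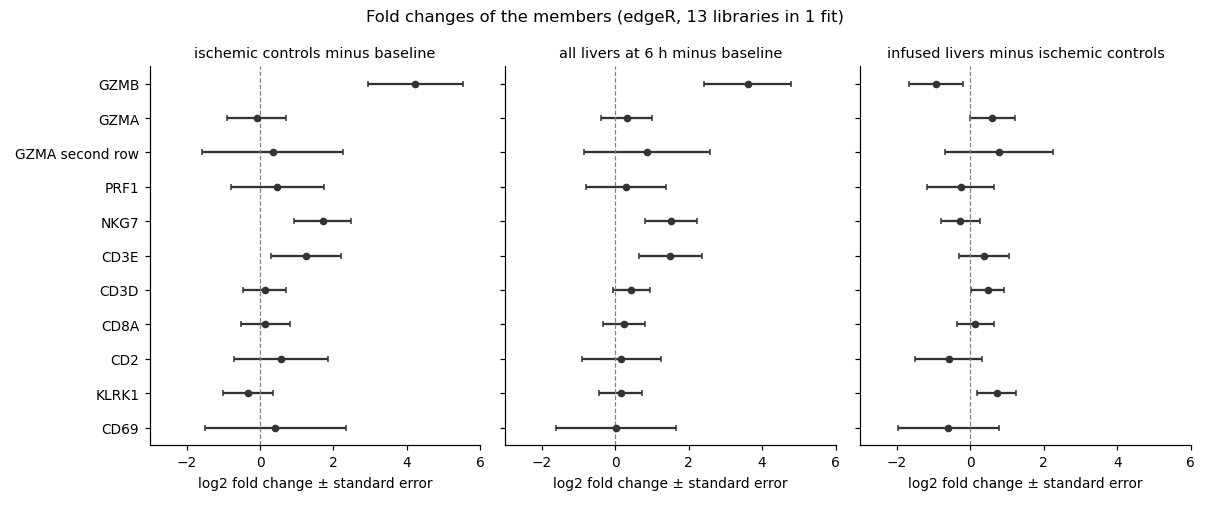
Log2 fold change with its standard error for each of the 11 rows, from 1 edgeR fit of 13 libraries, in 3 comparisons; the dashed line is no change. GZMB stands at 4.23 and 3.61 against baseline, NKG7 and CD3E between 1.25 and 1.71, and the others nearer to 0, and in the infused livers against the controls GZMB is at -0.93.

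Whether GZMB moved apart from the other genes was tested within libraries, by the log2 ratio of its count to that of each other member, which does not depend on the scaling of a library (1 was added to each count). Relative to each of the 9 other genes, GZMB was higher in all 3 ischemic controls than in both baseline libraries. As the study named GZMB from these libraries, this direction is not independent evidence, and GZMB had 4 and 7 reads at baseline. The differences of the mean log2 ratio ran from 2.36 for NKG7 to 4.29 for KLRK1, with a median of 3.71. The mean log2 ratio of GZMB to CD3E was -3.74 ± 0.24 at baseline and -0.82 ± 0.78 in the controls (SD), and that to PRF1 -3.09 ± 1.13 and 0.45 ± 1.46. Each of the 9 ratios had p = 0.1 by a two-sided exact permutation test, the smallest that 3 against 2 libraries can give, so these groups could not reach 0.05.

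Over all 11 livers at 6 h, the 9 ratios were higher than at baseline by 1.83 (NKG7) to 4.00 (CD69), with a median of 2.98. The ratios to PRF1, CD2 and CD69 include libraries in which these genes had no count. With 0.5 added in place of 1, or without the 3 libraries with many genes at 0, the median was between 2.54 and 3.08. The ranges did not overlap for CD3D, CD8A and CD2, and for the other 6 at least 9 of the 11 livers were above both baseline libraries. The exact permutation p-values ran from 0.0128, the smallest possible, to 0.128, and after adjustment over the 9 ratios from 0.0577 to 0.128, so that 0 of 9 were under 0.05. The differences were 1.91 for CD3E (p = 0.0513, exact permutation, adjusted 0.0769), 2.69 for CD3D (p = 0.0128, adjusted 0.0577) and 3.35 for PRF1 (p = 0.128, adjusted 0.128). Arterial infusion 2 and 3, with the lowest GZMB, had ratios to CD3E, NKG7 and GZMA close to those at baseline. Without arterial infusion 2, 6 of the 9 adjusted values were under 0.05, and without arterial infusion 3 also 6. Ratios without overlap numbered 6 without arterial infusion 2 and 8 without baseline 2, in place of 3. The ratios share GZMB and the baseline libraries and are not independent of each other. GZMB was named by the study from part of these libraries, so the direction of the ratios is not independent evidence. The same limit holds for their size beside the pairs below. Among the 36 pairs of members that leave out GZMB, the shift of the ratio between baseline and 6 h had a median size of 0.82 (0.07 to 2.17), and ranges did not overlap for 1 pair, NKG7 to CD8A.

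**Figure D3:**
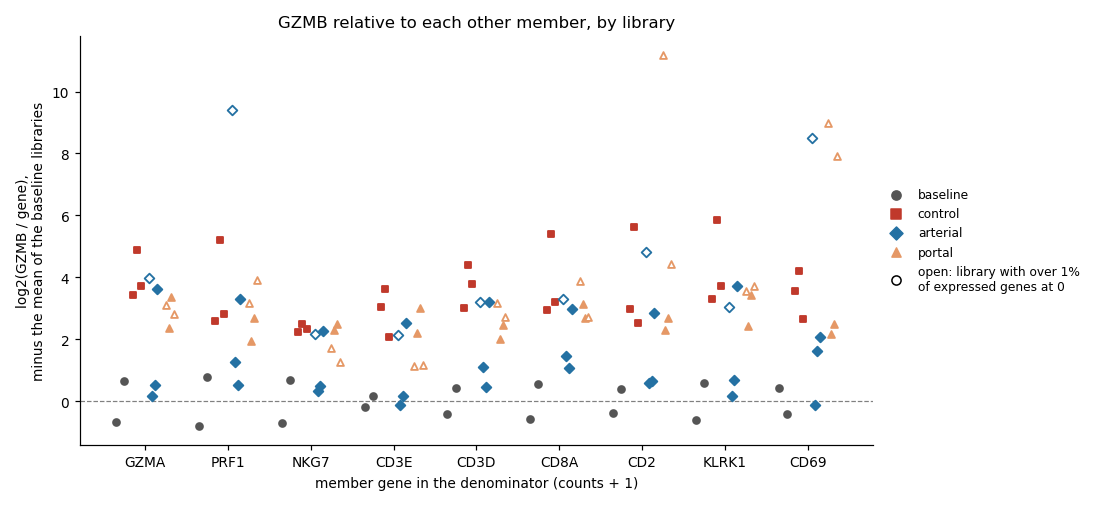
Log2 ratio of the GZMB count to the count of each other member by library, with the mean of the baseline libraries set to 0. Each point is 1 library, and open points are the 3 libraries with many genes at 0. The ischemic controls lie 2 or more above 0 for each gene, arterial infusion 2 and 3 lie close to the baseline points for most genes, and the highest points come from libraries in which PRF1, CD2 or CD69 had no count.

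Among the 11 livers at 6 h, GZMB and NKG7 varied together. Pearson's r of log2(normalized count + 1) was 0.80 (permutation p = 0.00323, adjusted over the 9 members 0.0291) and Spearman's rho 0.85 (p = 0.0015, adjusted 0.0135). Without the 2 livers farthest from the median of GZMB, arterial infusion 2 and 3, r was 0.92. Without the 3 libraries with many genes at 0, r was 0.78 over 8 livers (permutation p = 0.0234, adjusted 0.211). Leaving out any of control 3, arterial infusion 1, 3 or 4, or portal infusion 1, r was 0.77 to 0.81 and the adjusted p 0.0526 to 0.0958 by permutation. By r, NKG7 ranked at 199 among 16480 genes.

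The T cell receptor genes were less like GZMB and none passed the adjusted threshold. For CD3E r was 0.55 and rho 0.55 (permutation p = 0.0793 for r and 0.0881 for rho, adjusted 0.296 and 0.264), for CD3D 0.50 and 0.59 (p = 0.116 and 0.0601, adjusted 0.296 and 0.264) and for CD8A 0.49 and 0.42 (p = 0.131 and 0.203, adjusted 0.296 and 0.456). Over the 8 livers r was 0.39, 0.34 and 0.38, and without arterial infusion 2 and 3 it was 0.78, 0.63 and 0.44. The remaining members had no clear relation to GZMB. For GZMA r was 0.15 and rho 0.13, for PRF1 -0.02 and 0.17, for KLRK1 -0.04 and 0.03, for CD69 -0.20 and 0.02, and for CD2 -0.37 and -0.23, with adjusted permutation p-values of at least 0.498. Of these, GZMA reached 0.65 without arterial infusion 2 and 3, and CD69 0.49 over the 8 livers. The median r of all 16480 genes with GZMB was -0.06, with 5% below -0.70 and 5% above 0.71, so values like those of CD3E and CD3D were common, and 18.6% of all genes were above 0.5.

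**Figure D4:**
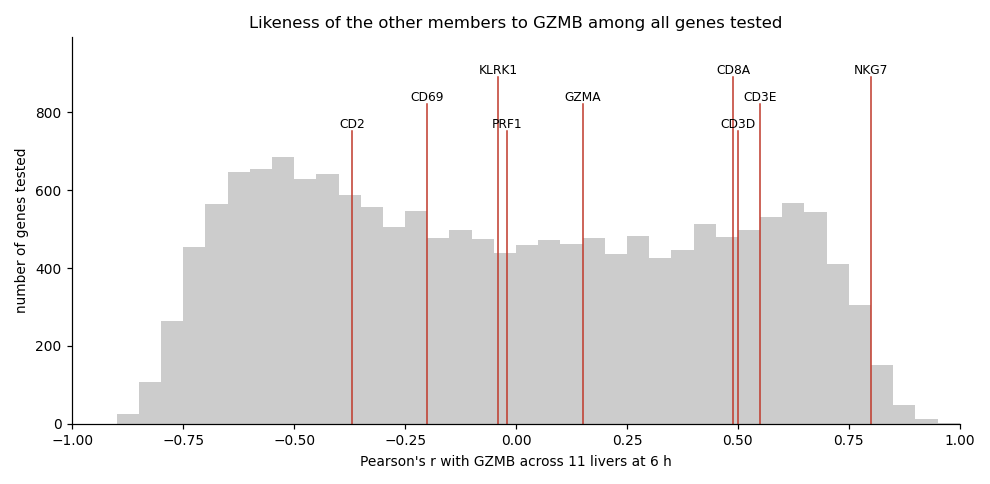
Number of genes by Pearson's r with GZMB over the 11 livers at 6 h (grey bars, 16480 genes), with a red line at the r of each other member. NKG7 stands at 0.80 near the upper edge, CD3E, CD3D and CD8A at 0.49 to 0.55 and the other 5 members between -0.37 and 0.15.

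The pairs of members without GZMB ranged widely. Over the 11 livers the pairs with high r included 0.90 for NKG7 with CD3E, 0.83 for GZMA with CD3E, 0.80 for CD3E with CD3D and 0.78 for GZMA with KLRK1, and over the 8 livers these pairs had 0.81, 0.82, 0.63 and 0.90. Over the same 11 livers r was -0.51 for CD2 with NKG7 and with CD3E and -0.40 for CD3E with CD69, and over the 8 livers 0.28, 0.70 and 0.82. PRF1 and CD2 had an r of -0.01 over 11 livers and of 0.89 over the 8 without the libraries that hold their zeros. Among these 8 livers, the SD of the log2 ratio between 2 members had a median of 0.75 over the 36 pairs without GZMB and of 1.36 over the 9 pairs with it. Over the 11 livers the order was the other way round, at 1.96 and 1.42.

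The state of a library moved with several of these genes. The first principal component over the 11 livers held 40.4% of the variance of 16481 genes and had an r of 0.91 with the percentage of genes at 0. With this component, r was 0.63 for GZMB, 0.81 for NKG7, 0.77 for CD3E, 0.63 for CD3D, -0.86 for CD2 and -0.78 for CD69. With the percentage of genes at 0 itself, r was 0.43 for GZMB, 0.65 for NKG7, 0.73 for CD3E, 0.65 for CD3D, -0.95 for CD2 and -0.72 for CD69. With the number of genes that had a count, CD2 had an r of 0.74 (rho 0.81, permutation p = 0.00167, adjusted over 10 genes 0.0167) and CD69 of 0.77 (rho 0.72, p = 0.00565, adjusted 0.0282), falling to 0.63 and 0.51 without the 2 farthest libraries, whereas GZMB had an r of -0.20 (rho -0.21, p = 0.557, adjusted 0.619). The part of library state in the relation of GZMB to NKG7 was not tested beyond leaving out the 3 libraries.

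The genes most like GZMB over the 11 livers, among 11970 with a symbol and a mean of at least 10 normalized counts, were not members. They were FGR (r = 0.955), a Src family kinase of myeloid and NK cells, PYCARD (0.936), the adaptor of inflammasomes, ITM2C (0.919), HK3 (0.919), the hexokinase of white blood cells, GLMP (0.915), HTRA3 (0.911), RRAS (0.910), PPARD (0.908), MDK (0.903) and EFNA3 (0.900). Over the 8 livers their r was between 0.89 and 0.96. They were picked for their likeness out of many genes, so these values carry no p. FGR did not share the difference from baseline, with 814 normalized counts on average at baseline and 451 to 1060 at 6 h (log2 fold change -0.16 ± 0.34). PYCARD had 20.0 at baseline and 6.49 to 194 at 6 h (1.49 ± 1.01), and HTRA3 37.2 at baseline and a median of 150.0 at 6 h (2.90 ± 1.42), both with adjusted p-values above 0.85 in edgeR.

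The other genes of the cytotoxic granule lay on both sides of their baseline level. Of 16 granule and death ligand genes tested, 11 had a higher and 5 a lower mean at 6 h, with a median log2 fold change of 0.24 against -0.01 over all genes, of which 49.5% were above 0, and 0 passed the adjusted threshold by edgeR. The largest difference was that of GNLY, the granule protein granulysin, with 38.6 and 2.11 normalized counts at baseline. It had 57.8, 601 and 51.3 in the controls, 199, 152, 3.24 and 146 after arterial and 1600, 77.5, 148 and 532 after portal infusion. The baseline libraries differed widely and the ranges overlapped through arterial infusion 3, and the log2 fold change was 3.55 ± 1.60 (edgeR, unadjusted p = 0.0423, adjusted 0.86). Without the 3 libraries with many genes at 0 it was 2.73 ± 1.41 (unadjusted p = 0.0768). At an unadjusted p under 0.05, GNLY was 1 of 16 higher, against 2.85% of all genes. GZMH, the neighbouring paralog, had 22.4 and 41.1 at baseline and 0 to 129 at 6 h (-0.19 ± 1.28), with an r to GZMB of 0.08. The lysosomal membrane protein LAMP1, the list's most abundant gene, had 4520 to 4570 at baseline and 3950 to 12400 at 6 h (0.54 ± 0.43). The list's r with GZMB over the 11 livers ran from -0.71 (GZMK) to 0.78 (LAMP1), with a median of 0.05.

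Of 20 further T cell genes tested, 14 had a higher and 6 a lower mean at 6 h, with a median log2 fold change of 0.58, and 0 were under an unadjusted p of 0.05. Of all genes, 49.5% were above 0, 2.85% were higher and 1.93% lower at that p. CD5, a T cell surface receptor, had 26.2 and 42.2 normalized counts at baseline and 26.1 to 349 at 6 h, with a median of 94.5 (1.72 ± 0.92, adjusted p = 0.86 in edgeR, and 1.24 ± 0.73 without the 3 libraries). CD4, the co-receptor of helper T cells, had 290.0 and 652 at baseline and 277 to 1510 at 6 h (0.33 ± 0.49). CD5 had an r to GZMB of 0.83 and CD4 of 0.75, while the median over the list was 0.23.

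Of 13 NK and innate-like lymphocyte genes tested, 9 had a higher and 4 a lower mean at 6 h, with a median of 0.11. FCER1G, a signalling adaptor that NK cells share with macrophages, neutrophils and mast cells, had 541 and 436 normalized counts at baseline and 688 to 3250 at 6 h, without overlap (1.49 ± 0.53, edgeR unadjusted p = 0.0135, adjusted 0.86, and 1.28 ± 0.50 without the 3 libraries). NCR1, an activating receptor found on NK cells, went the other way, with 88.6 and 98.0 at baseline and 0 to 69.8 at 6 h, also without overlap (-1.14 ± 0.88, adjusted p = 0.874, and -0.91 ± 0.43 without the 3 libraries, named after its values were seen). They were 1 of 13 wholly above and 1 of 13 wholly below baseline, against 3.3% and 3.97% of all genes. Of all genes, 49.5% had a log2 fold change above 0. The list's median r with GZMB was -0.30.

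The cytokine genes that drive these cells gave 8 higher and 8 lower means among 16 tested, with a median of 0.06, where 49.5% of all genes were above 0. TNFRSF9 (4-1BB), a co-stimulatory receptor, had 6.94 and 3.16 normalized counts at baseline and 0 to 32.7 at 6 h (1.62 ± 1.40). BATF, a transcription factor of activated lymphocytes, had 416 and 1750 at baseline and 333 to 1760 at 6 h (-0.34 ± 0.55). Interferon gamma (IFNG) was too low to test, at up to 10.1 in any liver. Of 18 lymphocyte trafficking genes, 8 had a higher and 10 a lower mean at 6 h, with a median of -0.08. The chemokine CXCL11 had 3.09 and 3.16 at baseline and 0 to 41.2 at 6 h (2.24 ± 1.59), and the adhesion molecule ICAM1 1700.0 to 4050 and 803 to 4130 (-0.52 ± 0.52). The chemokine CCL5 had 322 and 376 at baseline and 240.0 to 3290 at 6 h (1.83 ± 0.78, edgeR unadjusted p = 0.0325, adjusted 0.86, and 1.40 ± 0.69 with an adjusted p of 0.742 without the 3 libraries, named after its values were seen).

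Markers of other cells were measured beside these genes. Of 8 neutrophil markers tested, 7 had a higher mean at 6 h, where 49.5% of all genes did, with a median log2 fold change of 1.35. S100A8 had 158 and 161 normalized counts at baseline and 135 to 5750 at 6 h (3.11 ± 1.30, edgeR unadjusted p = 0.031, adjusted 0.86). Without the 3 libraries S100A8 was at 2.47 ± 1.12. In the controls against baseline, the main edgeR fit gave both S100A8 (3.83 ± 1.44) and S100A12 (3.45 ± 1.18) an adjusted p of 0.978. Both passed the adjusted threshold with DESeq2 fitted to those libraries alone (smallest adjusted p = 0.00169), where 168 of 23625 genes passed. They also passed with edgeR without the filter on low counts (smallest adjusted p = 0.0112), where 30 of 24918 genes did. Over all livers at 6 h S100A8 passed with edgeR without that filter (adjusted p = 0.0417), as did 28 of 24918 genes. The summed level of the 8 markers was 1300 to 1493 at baseline, 1770 to 13030 in the controls, 919 to 9971 after arterial and 1111 to 4112 after portal infusion. Over the 11 livers the 8 markers had an r with GZMB of 0.37 to 0.85 with a median of 0.76 (0.81 over the 8 livers), the highest median among the 13 lists. CXCR1, CXCR2, CAMP, FCGR3B and S100A9 had no row under their symbol. The part of neutrophils in the level of GZMB was not tested.

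For the other cells known to make granzyme B, fewer markers had a row. Of the plasmacytoid dendritic cell markers, CLEC4C, LILRA4 and IL3RA had no row. The 5 that were tested had a median log2 fold change of 0.61 at 6 h, summed levels of 742 to 771 at baseline and 415 to 3056 at 6 h, and a median r with GZMB of 0.27. The interferon regulator IRF7 had 457 and 472 normalized counts at baseline and 263 to 2820 at 6 h, and the nucleic acid receptor TLR7 157 and 168 at baseline and 0 to 123 at 6 h (-1.41, and -0.94 ± 0.41 without the 3 libraries). Of the mast cell and basophil markers, CPA3, TPSAB1 and CMA1 had no row, HPGDS was near 0 in both groups, and the 5 tested had a median of -0.13 and a median r of 0.15.

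Of the remaining lists, the 12 B and plasma cell markers had 10 higher and 2 lower means at 6 h (median 0.25), the 14 macrophage and monocyte markers 7 and 7 (median 0.07), and the 10 all-leukocyte markers 9 and 1 (median 0.34). Their median r with GZMB was -0.07, 0.22 and 0.36. Of all genes, 49.5% were above 0. At an unadjusted p under 0.05 by edgeR, 2 of 14 macrophage markers were lower (CLEC4F and MRC1), against 1.93% of all genes. Higher at that p were 1 of 10 all-leukocyte markers (ARHGDIB) and 1 of 11 hepatocyte markers (APOC3), against 2.85%. The 11 hepatocyte markers had 5 higher and 6 lower means, a median log2 fold change of -0.32 and an r with GZMB of -0.79 to 0.66. Albumin (ALB), the most abundant, had 716000 and 2130000 normalized counts at baseline and 468000 to 1750000 at 6 h (-0.52 ± 0.57), with an r of -0.58. The 0.66 was that of APOC3, an apolipoprotein of hepatocytes, which had 62500 and 75100 normalized counts at baseline and 92400 to 964000 at 6 h (2.36 ± 1.08, and 1.41 ± 0.68 without the 3 libraries).

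**Figure D5:**
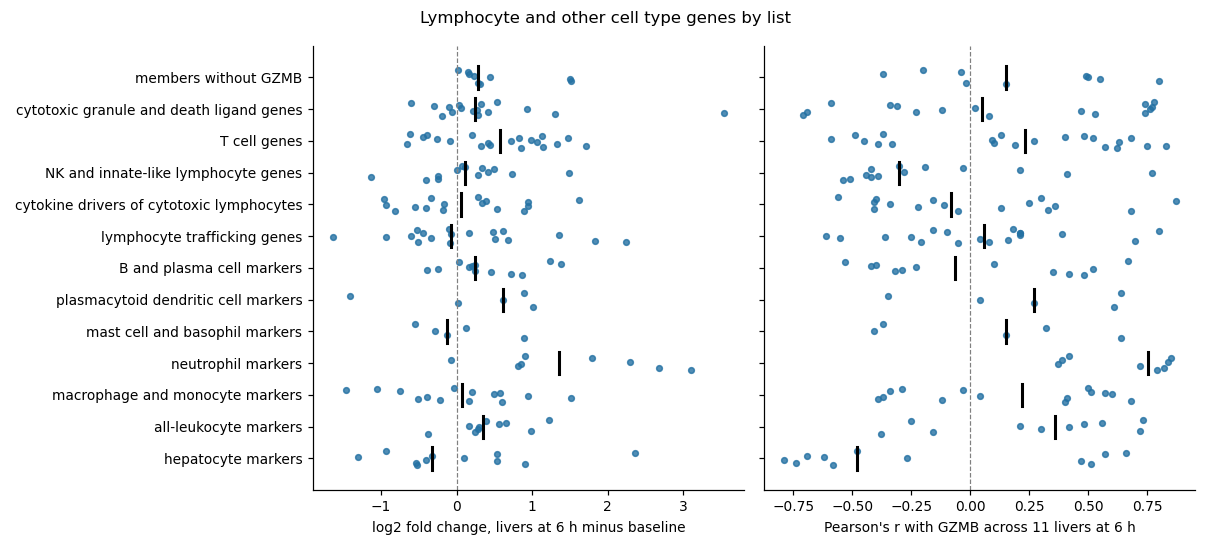
Log2 fold change of all livers at 6 h against baseline (left) and Pearson's r with GZMB over the 11 livers (right) for each tested gene of 13 lists, GZMB left out. Each point is 1 gene and the black bar is the list's median. The neutrophil markers have the highest medians, at 1.35 and 0.76, while the T cell, NK cell and granule lists spread over both sides of 0.

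Infusion of BM-MSCs was compared with the ischemic controls to see whether the level of these genes depended on the cells or their route. GZMB had a lower mean after infusion by either route, but the ranges overlapped throughout. Against the controls (101 ± 75.8, SD, n = 3), the arterial infusion livers (40.6 ± 33.8, SD, n = 4) had a log2 fold change of -1.31 ± 0.87 and the portal infusion livers (70.9 ± 46.3, SD, n = 4) of -0.55 ± 0.87, both with an adjusted p of 1.0 in edgeR. The exact permutation p was 0.257 and 0.743 where 0.0286 is the smallest possible. For all 8 infused livers the log2 fold change was -0.93 ± 0.74 (edgeR, adjusted p = 1.0, exact permutation p = 0.37). Arterial minus portal infusion was -0.75 ± 0.81 (edgeR, adjusted p = 1.0, exact permutation p = 0.286). Ischemic control 2 held the highest GZMB of all libraries, and without it the portal contrast was 0.04. Without the 3 libraries with many genes at 0, the contrasts with the controls were -1.75 for arterial and -1.30 for portal infusion. These 3 are all infused livers and had the highest GZMB of their groups, at 70.5 (arterial infusion 1), 138 and 63.8 (portal infusion 1 and 4). Every control was kept, so lower contrasts follow from the removal. Over the alternative fits the adjusted p was at least 0.556 for arterial and 0.595 for portal infusion.

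Macrophage, all-leukocyte and neutrophil markers also had mostly lower means over all infused livers, where 47.9% of all genes were above 0. Plasmacytoid dendritic cell and mast cell markers each had 4 of 5 lower. The lymphocyte lists were mixed. Higher were 12 of 20 T cell genes, 7 of 13 NK genes (median 0.0) and 7 of 12 B cell markers. The granule and the cytokine lists each had 8 higher and 8 lower. Of the 18 lymphocyte trafficking genes 6 were higher and 12 lower, with a median log2 fold change of -0.36. TYROBP of the NK list and ITGB2 of the trafficking list were lower at an unadjusted p under 0.05 by edgeR, against 1.41% of all genes. In all infused livers against the controls, 11 of 14 macrophage and monocyte markers were lower, with a median log2 fold change of -0.69 against -0.02 over all genes, and 5 of them were under an unadjusted p of 0.05 (CD14, CSF1R, C1QA, C1QB and C1QC), against 1.41% of all genes. Of the 10 all-leukocyte markers 9 were lower (median -0.31), 3 of them at that p, and of the 8 neutrophil markers 7 (median -0.38), 0 at that p. None passed the adjusted threshold by edgeR, DESeq2 or limma. Their part in the level of GZMB was not tested.

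None of the 11 rows differed between the groups at 6 h at an adjusted p under 0.05 by edgeR, nor at an unadjusted p under 0.05. For arterial infusion against the controls the share of all genes was 0.0% adjusted, 0.625% unadjusted higher and 0.94% lower. For portal infusion against the controls it was 0.0%, 1.13% and 1.66%, for all infused livers 0.0%, 0.734% and 1.41%, and for arterial against portal infusion 0.0%, 1.09% and 1.32%. With DESeq2 and all 13 libraries, 0, 4, 1 and 1 genes passed, none of them a member. No row had groups without overlap, which 1.61% of all genes had upward and 1.57% downward in the arterial comparison, 1.39% and 2.33% in the portal, 0.225% and 0.34% in that of all infused livers, and 0.91% and 0.498% in that of the routes. The largest differences of all infused livers from the controls, beside GZMB, were 0.77 for the second GZMA row, 0.72 ± 0.53 for KLRK1, -0.60 ± 1.37 for CD69 and 0.60 ± 0.62 for GZMA. CD3E (0.37 ± 0.69), CD3D (0.47 ± 0.45), NKG7 (-0.27 ± 0.54) and PRF1 (-0.26 ± 0.91) lay closer to 0. The median over the other 10 rows was 0.25, against -0.02 over all genes. Above 0 were 5 of 11 rows for arterial infusion (50.8% of all genes), 8 for portal infusion (48.1%), 6 for all infused livers (47.9%) and 3 for arterial against portal infusion (52.9%).

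Within libraries, the ratio of GZMB to the other members was lower in the infused livers than in the controls for 8 of the 9 genes, with a median difference of the log2 ratio of -1.20 (-1.70 to 0.73). The exact permutation p-values ran from 0.0667 to 0.988, and from 0.229 to 0.988 after adjustment over the 9 ratios. By route, the median difference of the log2 ratio was -1.65 for arterial and -0.75 for portal infusion, with adjusted exact permutation p-values of at least 0.367 and 0.257. The ratio to GZMA was below that of every control in all 4 portal infusion livers (-1.10, exact permutation p = 0.0286, the smallest possible, adjusted 0.257). No ratio differed between the groups at 6 h at an adjusted p under 0.05 by exact permutation test. By route the test could hardly decide, since a single ratio at the smallest possible p was adjusted to 0.257.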

How the data were processed

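RNA was measured in 13 liver libraries. The authors removed reads with adapters or low quality, mapped the rest with HISAT2 to the Ensembl release 110 pig genome, counted with FeatureCounts (versions and strand setting are not given in the sources used here), and deposited raw counts per gene. Libraries were non-directional. The labels name a miRNeasy kit for extraction and the sequencing methods a NucleoSpin kit. Groups and replicates come from the labels, and 0 columns were left without a sample. No 2 libraries of a group were copies of each other, and the labels name no batch.

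edgeR 4.0.16 in R 4.3.3 (filterByExpr, TMM, quasi-likelihood test, Benjamini-Hochberg, threshold 0.05) tested 16481 genes with all 13 libraries in 1 fit, the common biological coefficient of variation being 0.729. DESeq2 1.42.0 gave the size factors and an alternative test, and limma 3.58.1 another with sample weights. Permutation tests and correlations (100000 resamples) used log2(normalized count + 1) in Python 3.11.15 with SciPy 1.17.1. The fit was tested on simulated data.

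The members, gene lists and tests were chosen with earlier results of these data known. The genes named were the members, the 10 most like GZMB, and from each list the most abundant and the most changed gene at 6 h (mean of at least 10), with later additions marked. From the lists of other cells, only some of these are named. Alternatives were other tools, normalizations, filters, left-out libraries and the replicate number as a block. Intervals and the limit of 3 counts cover counting error only. Depth ranged from 18975413 to 35949178 counts.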

Additional observations from a re-analysis of the deposited data

Results flagged for a closer look

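PRF1 in arterial infusion 1 had a normalized count of 0, while the other 3 livers of that group had 52, 56.8 and 59.7. Its gap to the nearest of them was 0.871 of the group's range, above the limit for an outlying value among 4. This was 1 of 22 sets of 4 libraries tested, and chance alone gives about 1 in 20. Of 1565 genes of a similar level in the other libraries, 8.18% were at 0 in the same library.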

How the results depend on the processing

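With other tools, normalizations, filters or the block, or without the 3 libraries with many genes at 0, the log2 fold change of GZMB against baseline was 3.82 to 4.59 in the controls and 2.91 to 3.68 over all livers at 6 h. It passed the threshold only with DESeq2 fitted to the controls and baseline alone (4.34, adjusted p = 0.00177), and the adjusted p was 0.0862 to 0.969 in the other fits of this kind for the controls and 0.0846 to 0.871 for all livers at 6 h. With at least 10 counts required in every library GZMB was not tested, and no separate fit of the libraries compared exists for all livers at 6 h, which use all groups. The number of genes past the threshold, 0 in all 6 comparisons, was 6 with DESeq2 over all libraries, 168 over those compared and 30 without the filter for controls against baseline. For all livers at 6 h it was 15 with DESeq2, 111 with limma's voom and sample weights and 28 without the filter. For arterial infusion against the controls it was 1 with DESeq2 over the libraries compared and 11 without the filter, for portal infusion 4 and 3 with DESeq2 over all and over those libraries and 14 without the filter. For all infused livers it was 1 with DESeq2 over all libraries and 19 without the filter, and for arterial against portal infusion 1 and 5. The cause was not tested.

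Leaving out 1 library at a time, GZMB passed in no comparison and was 3.65 to 4.90 in the controls, 3.10 to 4.28 over all livers at 6 h, -1.77 to -0.71 for arterial, -1.04 to 0.04 for portal and -1.39 to -0.34 for all infused livers against the controls, and -1.17 to -0.27 between the routes. In the controls GZMA was -0.49 to 0.27, the second GZMA row -1.30 to 0.91, PRF1 -0.40 to 0.77, CD3D -0.07 to 0.45, CD8A -0.64 to 0.45, CD2 -0.78 to 0.95 and CD69 -0.30 to 1.71. Over all livers at 6 h CD8A was -0.03 to 0.34, CD2 -0.28 to 0.32, KLRK1 -0.09 to 0.24 and CD69 -0.67 to 1.31, and CD69 was -0.03 without mitochondrial and small RNA genes. The ratios of GZMB without overlap numbered 3 to 8 of 9 over all livers at 6 h, and those with an adjusted p under 0.05 numbered 0 to 6 (6 without arterial infusion 2 or 3). The median r of GZMB with the other members was -0.03 to 0.41 (-0.03 without control 1 or portal infusion 1, 0.41 without arterial infusion 2), and 0 to 2 members passed (2 without control 2, 0 without control 3, arterial infusion 1, 3 or 4, or portal infusion 1), 0 also without the 3 libraries with many genes at 0. The r with NKG7 was 0.76 to 0.85. The r with PRF1 was -0.14 to 0.31, 0.11 with a variance stabilizing transformation, 0.12 with TMM counts per M and 0.20 without the 3 libraries.

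Whether the replicate numbers pair samples could not be decided from the counts. Livers of different groups at 6 h came from different pigs, and the deviations of the 2 baseline libraries mirror each other by construction. Deviations of same-numbered libraries had correlations of -0.422 to 0.428 over 16 pairs, with 5 over 0.1, and a median of -0.034 against -0.012 for 46 other pairs. With the replicate number as a block 0 genes passed in each comparison, and GZMB was 4.59 in the controls and 3.63 over all livers at 6 h. Under the block, the controls had -1.34 for the second GZMA row, -0.02 for PRF1, -0.17 for CD8A, -0.45 for CD2 and -0.49 for CD69, and all livers at 6 h -0.82, -0.05, -0.10, -0.91 and -1.47. Low counts limit GZMB at baseline, with 4 and 7 reads.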
